A study of Danio rerio with 6 samples.

Results

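Cytosolic ribosomal protein genes encode the proteins that, together with ribosomal RNA, build the large and the small subunit of the ribosome in the cytoplasm. Cells need these proteins in fixed proportions, and their mRNAs are among the most abundant of a growing cell, many of them starting with a run of pyrimidines (the 5′ TOP motif) through which mTOR signaling sets their translation. In human, loss of 1 copy of several of these genes causes Diamond-Blackfan anemia, a failure of red cell production, and unassembled Rpl5 and Rpl11 bind Mdm2, the inhibitor of p53.

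The members are the genes whose deposited symbol is *rplp0*, *rplp1*, *rplp2*, *rplp2l* or *rpsa*, or begins with *rpl* or *rps* directly followed by a digit, without the *rps6k* kinases. This gave 83 of the 37898 genes in the table, with 81 different symbols, since *rpl26* and *rpl37* each stand for a pair of identifiers. By name, 48 belong to the large subunit and 33 to the small subunit, and the other two, *rps19bp1* and *rpl7l1*, are named for a binding partner and for a relative of a ribosomal protein. RNA was extracted from whole zebrafish larvae at 4 dpf. The mutants carry *sart3* -/-, the ENU-induced *smu471* nonsense allele of *sart3*, which encodes a factor that helps U4 and U6 snRNPs to assemble, and the controls are their WT siblings from *sart3* +/- intercrosses. There were 3 libraries in each group, and the number of larvae behind a library is not given in the sources used here. The paper calls them biological replicates, and neither it nor the labels say whether they come from separate clutches, so the p-values measure the spread between these libraries.

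The 6 libraries held between 16008788 and 18310233 counts on genes. *sart3* itself stood at 66.1, 68.8 and 70.2 CPM (counts scaled to library size and composition) in siblings and at 53.4, 48.1 and 49.3 CPM in mutants, below every sibling library (log2 fold change -0.44, standard error (SE) 0.07, adjusted p = 0.0023). A change in whole larvae can come from fewer cells of a type or from less RNA per cell, and these cannot be told apart here.

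Ribosomal protein mRNAs were lower in *sart3* mutants, and nearly all well-counted members fell by a similar amount. Summed over all members, they took 5.21%, 5.03% and 5.10% of the counts in the sibling libraries and 3.48%, 3.49% and 3.19% in the mutant libraries. Every mutant library lay below every sibling library. The group means were 5.12% ± 0.09 (SD, n = 3) and 3.39% ± 0.17 (SD, n = 3), so the mutant share was 0.662 times the sibling share. An exact two-sided permutation test over the 6 libraries gave p = 0.1, the smallest value that 3 against 3 can give.

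**Figure D1:**
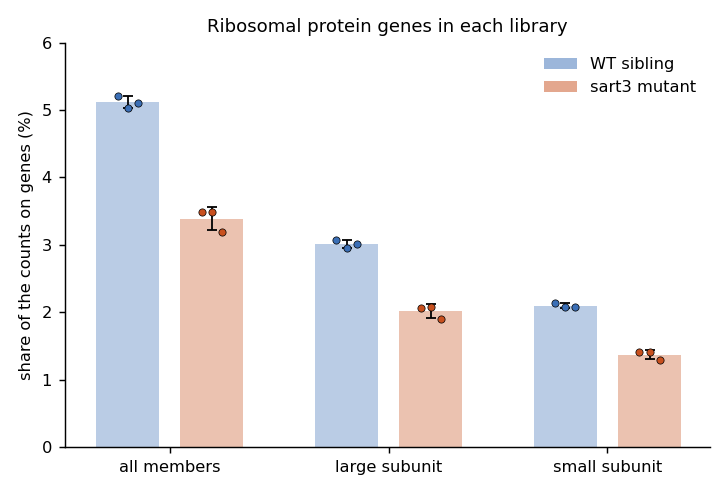
Share of the counts on genes (%, vertical axis) taken by all 83 members, by the large subunit genes and by the small subunit genes. Bars are group means, whiskers the SD of 3 libraries and points single libraries, WT siblings in blue and *sart3* mutants in orange. The mutant libraries lie between 3.19% and 3.49% for all members, below the sibling libraries between 5.03% and 5.21%.

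Each gene was tested with the quasi-likelihood method of edgeR, adjusted over all 24809 genes with enough counts, at an adjusted p under 0.05. Of the 81 members tested, 64 were lower in mutants, 1 was higher and 16 did not pass. Among all genes tested, 14.3% were called lower and 13.6% higher. The median log2 fold change of the members was -0.63, beside 0.01 for all genes. In 67 of the members tested, every mutant library lay below every sibling library, as it did for 22.3% of all genes tested. Each of the 64 lower members was also called lower with every other scaling that refers to the whole library, count filter and test tried, and whichever library was left out. At an adjusted p under 0.01 the count of lower members was again 64, against 8.18% of all genes tested.

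The members split by level into 65 genes with a mean of at least 50 CPM over the 6 libraries and 18 below that. Of the 65, 61 were lower and 0 were higher, with a median log2 fold change of -0.63, and 58 of them lay between -1 and -0.4. Against the sibling mean of each gene, the median of these 65 genes was 67.5%, 66.6% and 60.7% in the 3 mutant libraries. The corresponding medians were 104%, 97.5% and 98.5% in the 3 sibling libraries. Mutant library 3 was the lowest of the mutants for 64 of the 81 members tested.

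**Figure D2:**
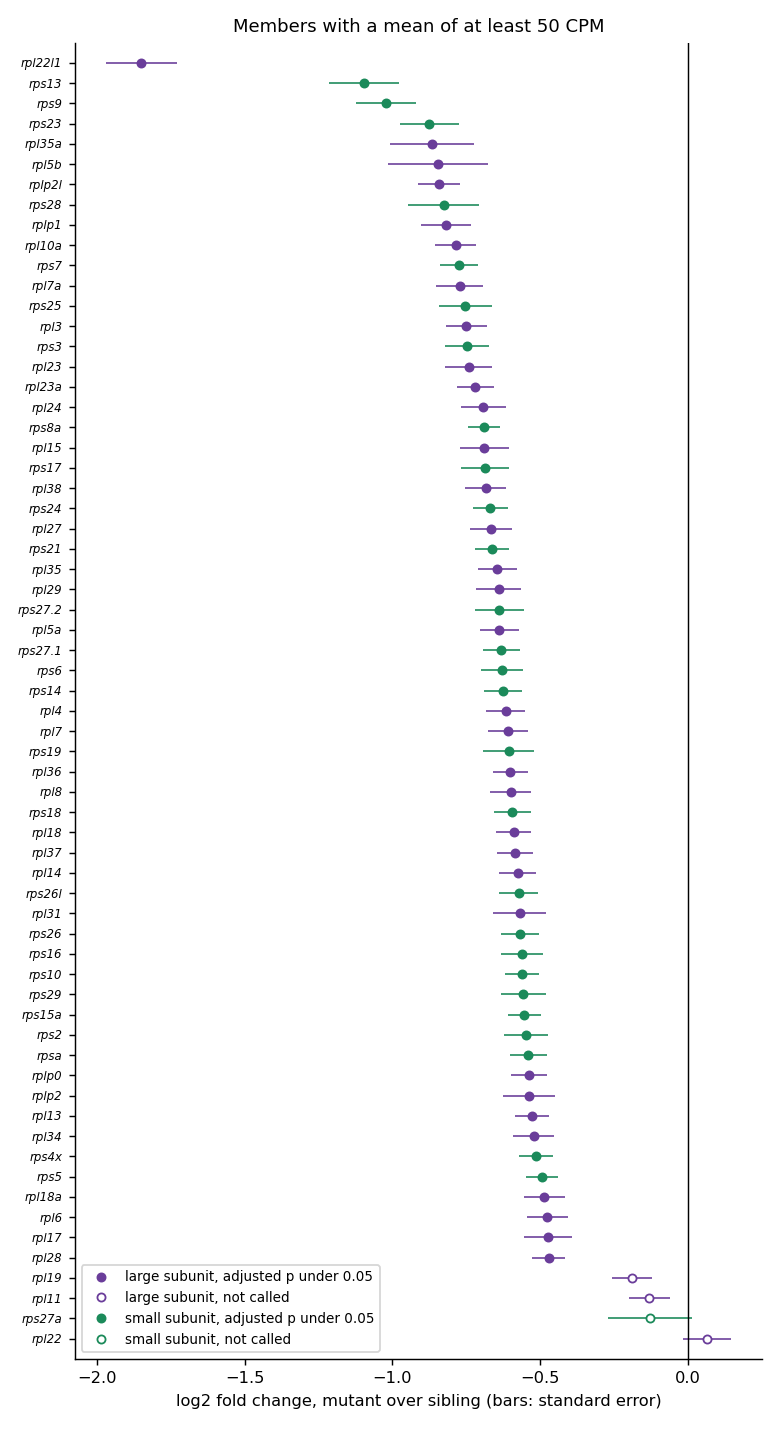
Log2 fold change of mutants over siblings (horizontal axis) for 64 of the 65 members with a mean of at least 50 CPM, ordered by size, with bars of 1 SE from edgeR. Filled points passed an adjusted p of 0.05 and open points did not. Apart from *rpl22l1* on the left and *rpl19*, *rpl11*, *rps27a* and *rpl22* on the right, the genes of both subunits overlap each other.

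Markers of several tissues moved in the same libraries. Of 4 exocrine pancreas markers tested 4 were lower, of 4 lens crystallins 3, and of 5 neuronal markers 4, while 2 of 4 skin markers were higher. Of 4 fast muscle markers 3 were higher and *ckma* was lower, and of 4 liver markers 2 were lower (*fabp10a* and *ttr*) and *apoa1a* was higher. The summed level of the 5 exocrine pancreas markers listed went from between 2702 and 2841 CPM in siblings to between 46.7 and 62.6 CPM in mutants, with *ctrb1* under 1 CPM in both groups. For the lens crystallins the sums were 1969 to 2328 CPM in siblings and 544 to 846 CPM in mutants, and for the neuronal markers 1634 to 1755 and 1282 to 1367 CPM. The 5 fast muscle markers listed, of which *mylpfa* had under 1 CPM, summed to 8218 to 8830 CPM in siblings and 9984 to 10340 CPM in mutants. Of 3 erythrocyte markers tested 0 were lower and 0 were higher. The 4 listed summed to 258 to 344 CPM in siblings and, with a wide spread, to 186 to 706 CPM in mutants. Genes of the mitochondrial chromosome took 4.58% ± 0.05 (SD, n = 3) of sibling counts and 5.65% ± 0.40 (SD, n = 3) of mutant counts. The part of these differences in the result was not tested.

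Ribosomal protein genes are short and abundant, so other genes of that kind are given beside them. The median length of the members tested was 1272 bases, against 2387 bases for all genes tested. Of the 188 other genes of at least 100 CPM and at most 1500 bases, 42.6% were called lower and 13.8% higher, with a median log2 fold change of -0.16. Of the 1587 other genes of at least 100 CPM, 24.7% were called lower and 28.9% higher, with a median of 0.03.

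**Figure D3:**
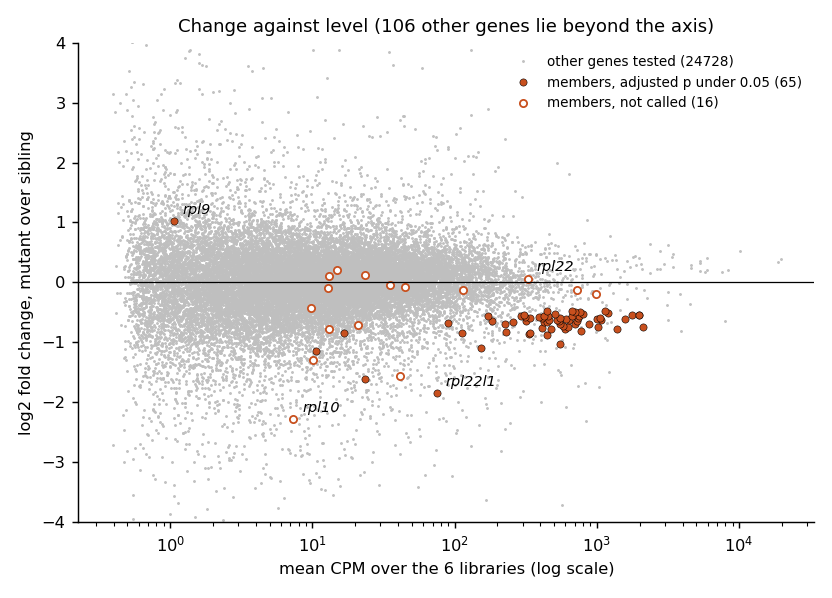
Log2 fold change of mutants over siblings (vertical axis) against the mean CPM over the 6 libraries (log scale) for the 81 members tested, in orange, and the 24728 other genes tested, in grey, of which 106 lie beyond the axis. The 65 members called lie, but for *rpl9*, below zero, most of them in a narrow band at the right.

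Both subunits were lower. In the large subunit 35 of 46 genes tested were lower and 1 was higher, with a median log2 fold change of -0.61. In the small subunit 29 of 33 were lower and 0 were higher, with a median of -0.63. The ratio of large to small subunit counts was 1.44, 1.43 and 1.45 in siblings and 1.47, 1.48 and 1.47 in mutants. These ratios did not overlap between the groups, but the mutant mean was only 1.02 times the sibling mean (exact two-sided permutation test, p = 0.1).

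Levels of different genes are compared as FPKM, which divides counts by gene length. Among the 65 well-counted members, mean sibling FPKM ran from 85.9 to 1965, with a median of 480. *rplp0*, which anchors the stalk, was the most abundant by FPKM, at 2066, 1917 and 1912 FPKM in siblings and 1381, 1388 and 1271 in mutants. It was followed by *rps2*, a protein at the mRNA entry channel of the small subunit, at 1703, 1578 and 1505 FPKM in siblings and 1159, 1106 and 994 in mutants. Next came *rpl3*, which lies close to the site of peptide bond formation, at 1650, 1490 and 1497 FPKM in siblings and 941, 956 and 848 in mutants. In each of these 3 genes the mutant libraries lay below the sibling libraries. *rps14*, the gene lost in the human 5q- syndrome, and *rpl6*, a large subunit protein, completed the 5 most abundant, with sibling means of 1505 ± 42.9 and 1341 ± 44.8 FPKM (SD, n = 3). Their mutant means were 971 ± 60.0 and 960 ± 72.9 FPKM (SD, n = 3). The log2 fold changes of these 5 genes were -0.54, -0.55, -0.75, -0.63 and -0.48, with SEs between 0.06 and 0.07. Of the 64 neighbouring pairs in this order, the sibling values of 10 pairs did not overlap and those of the rest did, so that the order is mostly within the spread of the libraries. The order also depends on the annotated lengths, such as 1173 bases for *rplp0* and 4848 bases for *rpsa*. By CPM *rpl3* was highest, with a sibling mean of 2648, while *rpsa*, at 2078 CPM, ranked 39 by FPKM. Levels in siblings and mutants ranked alike, with a Spearman correlation of 0.99 across these genes, which share the libraries and the gene lengths.

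The lower members of smallest adjusted p included *rpl22l1*, described with its relative *rpl22*, and 7 genes with log2 fold changes between -0.84 and -0.66. *rps8a*, needed for early maturation of the small subunit, stood at 890, 849 and 848 CPM in siblings and at 534, 546 and 524 CPM in mutants, with the groups far apart (log2 fold change -0.69, SE 0.05, adjusted p = 5.4e-05). *rps7*, another small subunit protein mutated in Diamond-Blackfan anemia, had 792, 714 and 757 CPM in siblings and 441, 458 and 424 CPM in mutants (log2 fold change -0.78, SE 0.06, adjusted p = 6.3e-05). *rpl23a*, where the signal recognition particle docks at the exit tunnel, had a log2 fold change of -0.72 (adjusted p = 8.8e-05), from 722 to 438 mean CPM. *rpl10a* changed by -0.79 (adjusted p = 9.7e-05), from 602 to 349 mean CPM, and *rps21* by -0.66 (adjusted p = 8.1e-05), from 314 to 198 mean CPM. *rps24*, a further Diamond-Blackfan anemia gene, fell from 522 to 328 mean CPM, with a log2 fold change of -0.67 (adjusted p = 0.00011). *rplp2l*, the last of the 7, belongs to the stalk.

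The stalk is the flexible arm of the large subunit that recruits elongation factors, made of Rplp0 with dimers of Rplp1 and Rplp2. All 4 stalk genes were lower. *rplp1* stood at 991, 951 and 1023 CPM in siblings and at 600, 592 and 491 CPM in mutants (log2 fold change -0.82, SE 0.08, adjusted p = 0.00021). *rplp2l* had 462, 427 and 424 CPM in siblings and 256, 252 and 223 CPM in mutants (log2 fold change -0.84, SE 0.07, adjusted p = 8.2e-05). *rplp0* and *rplp2* both changed by -0.54, with adjusted p of 0.00036 and 0.0023. *rpsa*, a small subunit protein first described as a laminin receptor, had 2213, 1994 and 2027 CPM in siblings and 1443, 1452 and 1392 CPM in mutants, a log2 fold change of -0.54 (adjusted p = 0.00038).

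Rpl5 and Rpl11 form a particle with 5S ribosomal RNA, and zebrafish has a pair of *rpl5* genes. *rpl5a* was lower in mutants, at 593, 575 and 527 CPM against 918, 842 and 876 CPM in siblings (log2 fold change -0.64, SE 0.07, adjusted p = 0.00023). *rpl5b*, the less abundant form, had 162, 154 and 116 CPM in siblings and 68.5, 101 and 70.7 CPM in mutants (log2 fold change -0.85, SE 0.17, adjusted p = 0.0068). *rpl11* was not called, at 792, 720 and 764 CPM in siblings and 738, 694 and 645 CPM in mutants, and its groups overlap (log2 fold change -0.13, SE 0.07, adjusted p = 0.20). The ratio of *rpl11* to *rpl5a* FPKM within a library was 1.47, 1.45 and 1.48 in siblings and 2.12, 2.06 and 2.08 in mutants. This ratio was 1.42 times higher in mutants and did not overlap between the groups (exact two-sided permutation test, p = 0.1).

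The genes mutated in human Diamond-Blackfan anemia, of which the zebrafish forms listed have 22 identifiers, included 19 lower and 0 higher of 21 tested, with a median log2 fold change of -0.64. Lower calls made up 90.5% of this list, 79.0% of all members tested and 93.85% of those of at least 50 CPM. The median of both wider sets was -0.63, so this list did not stand out from them. *rps19*, the gene most often mutated in that disease, went from 729 ± 27.5 to 479 ± 53.7 CPM (SD, n = 3), a log2 fold change of -0.61 (adjusted p = 0.0012). The 2 of the list that were not called were *rpl11* and the *rpl26* identifier with enough counts. The reference gene table pairs that *rpl26* identifier with *atp6v0e1*, so it may not stand for the disease gene.

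The largest fall among the well-counted members was that of *rpl22l1*, and its relative *rpl22* was not called. Rpl22 binds RNA on the large subunit, and in zebrafish the proteins of this pair were described as having opposing roles in the emergence of hematopoietic stem cells. *rpl22l1* stood at 131, 109 and 111 CPM in siblings and at 37.8, 29.0 and 30.3 CPM in mutants. All 3 mutant values were below all 3 sibling values, and the mutant mean was 27.7% of the sibling mean (log2 fold change -1.85, SE 0.12, adjusted p = 1.7e-05). *rpl22* had 340, 302 and 318 CPM in siblings and 371, 320 and 312 CPM in mutants, which overlap (log2 fold change 0.06, SE 0.08, adjusted p = 0.61). Per length, the FPKM of *rpl22l1* was 1.80, 1.69 and 1.63 times that of *rpl22* in the sibling libraries and 0.48, 0.43 and 0.46 times in the mutant libraries. By FPKM, the order of the pair was thus reversed in all 3 mutant libraries (exact two-sided permutation test on the ratio, p = 0.1). That order rests on gene lengths of 787 bases for *rpl22l1* and 3692 bases for *rpl22*, which overlaps the coding gene *chd5*. In CPM, *rpl22* was above *rpl22l1* in every library, so only the change in their ratio is free of the lengths. *rpl22l1* lies on chromosome 24 from 26475182 to 26479841 and *rpl22* on chromosome 11 from 29650011 to 29658396, in GRCz11, the build that the submitters' processing notes name.

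**Figure D4:**
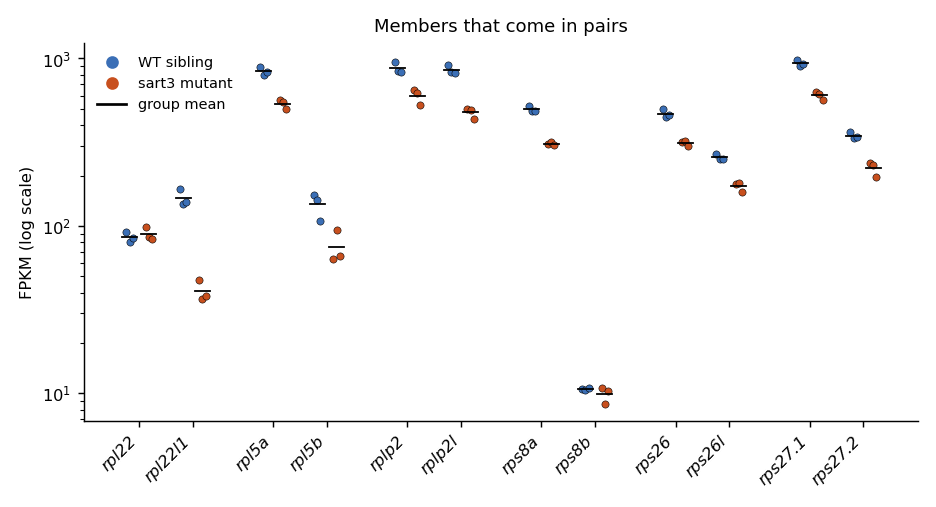
FPKM (vertical axis, log scale) of 6 pairs of related members in each library, WT siblings in blue and *sart3* mutants in orange, with black lines for group means. *rpl22l1* lies above *rpl22* in siblings and below it in mutants, while in the pairs *rps26* with *rps26l* and *rps27.1* with *rps27.2* both forms fall alike.

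Among the other pairs, the forms kept their proportions in some and not in others. *rps26* and *rps26l* were both lower, with log2 fold changes of -0.57 each, and their FPKM ratio was 0.551 ± 0.013 in siblings and 0.548 ± 0.018 in mutants (SD, n = 3, exact two-sided permutation test, p = 0.9). *rps27.1* and *rps27.2* changed by -0.63 and -0.64, with a ratio of 0.369 ± 0.004 in siblings and 0.367 ± 0.020 in mutants (SD, n = 3, exact permutation test, p = 1.0). *rplp2l* stood at 0.98 of *rplp2* in siblings and at 0.80 in mutants, without overlap (exact permutation test, p = 0.1). *rps8b*, of 10.6 mean FPKM in siblings, was not called (log2 fold change -0.09, adjusted p = 0.66) beside the lower *rps8a*, and its ratio to *rps8a* was 0.021 in siblings and 0.032 in mutants without overlap (exact permutation test, p = 0.1). *rpl7l1*, a relative of *rpl7*, had 45.4, 45.6 and 47.5 CPM in siblings and 42.6, 47.9 and 41.0 CPM in mutants (adjusted p = 0.54), while *rpl7* was lower (log2 fold change -0.61, adjusted p = 0.00033). The ratio of their FPKM was 0.021 in siblings and 0.031 in mutants, without overlap (exact permutation test, p = 0.1). The ratio of *rpl5b* to *rpl5a* overlapped between the groups (exact permutation test, p = 0.4). These are 6 of 8 such ratios computed, the others being *rpl11* to *rpl5a* and *rpl22l1* to *rpl22*, and since none can go below 0.1, none would pass an adjustment over the 8.

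Besides *rpl11* and *rpl22*, the well-counted members that were not called were *rpl19* and *rps27a*, named here after their values were seen. *rpl19*, a large subunit protein that also bridges to the small subunit, stood at 1098, 1022 and 1038 CPM in siblings and at 955, 961 and 850 CPM in mutants, with no overlap but an adjusted p of 0.068 (log2 fold change -0.19, SE 0.07). *rps27a*, which encodes ubiquitin fused to a small subunit protein, had 142, 96.1 and 121 CPM in siblings and 125, 102 and 100 CPM in mutants (log2 fold change -0.13, SE 0.14, adjusted p = 0.55).

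To ask which members departed from the rest, the test was run again with the summed member counts in place of the library size, an alternative chosen after the data were seen. This moved the median of all genes to 0.62, and 56.6% of all genes were then called higher and 4.18% lower. Relative to this pool, 13 members were lower and 9 were higher, and the others did not pass. The lower ones were *rpl22l1* (log2 fold change relative to the pool -1.24), *rpl36a* (-1.02), *rpl12* (-0.53), *rps13* (-0.49), *rps9* (-0.42), *rps23* (-0.27), *rplp2l* (-0.24), *rplp1* (-0.21), *rpl10a* (-0.18), *rpl7a* (-0.17), *rps7* (-0.17), *rpl3* (-0.14) and *rps3* (-0.14). The higher ones were *rpl22*, *rps27a*, *rpl11*, *rpl19*, *rps8b*, *rpl7l1*, *rps19bp1*, *rpl9* and the *rpl26* identifier with enough counts, between 0.42 and 1.63.

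*rps13*, which lies at the subunit interface, and *rps9*, which in yeast affects the accuracy of decoding, stood next to *rpl22l1* among the well-counted members. *rps13* had 175, 246 and 199 CPM in siblings and 97.7, 102 and 90.9 CPM in mutants (log2 fold change -1.10, SE 0.12, adjusted p = 0.00027). *rps9* had 723, 847 and 646 CPM in siblings and 377, 376 and 337 CPM in mutants (log2 fold change -1.02, SE 0.10, adjusted p = 0.00017). In both genes the groups were apart.

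*sart3* lies on chromosome 5 from 20453874 to 20481389, and larvae of the same genotype there tend to share the chromosome around it. The paper's methods do not state how the larvae for these libraries were sorted. Of the 4 members on chromosome 5, *rpl36a* lies 2.03 Mb away, *rpl12* 12.4 Mb, *rpl7a* 12.8 Mb and *rplp0* 18.5 Mb. *rpl36a* had 32.7, 40.5 and 33.4 CPM in siblings and 15.7, 12.3 and 6.87 CPM in mutants (log2 fold change -1.61, SE 0.25, adjusted p = 0.0020), and for this gene an effect of the mutation and of linked sequence cannot be told apart. *rpl12* and *rpl7a* were also lower relative to the member pool (-0.53 and -0.17), while *rplp0* did not pass there. A part of linked sequence in these more distant genes was not tested.

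The 18 members under 50 CPM behaved less uniformly than the well-counted ones. Of the 16 tested, 3 were lower, *rpl36a*, *rpl12* and *rps3a*, and 1 was higher. These are 18.75% and 6.25%, beside 14.3% and 13.6% of all genes tested. The median log2 fold change of the 16 was -0.57, near the -0.63 of the well-counted members, with quartiles of -1.18 and -0.003. The higher one, *rpl9*, had 12, 12 and 13 counts in siblings and 23, 26 and 22 in mutants, or 0.67, 0.68 and 0.73 CPM against 1.33, 1.62 and 1.31 CPM (log2 fold change 1.02, SE 0.31, adjusted p = 0.037). This gene lost the call under 9 of the 16 alternatives computed for it, with adjusted p up to 0.16, and in the table it overlaps *rfc1*. Several others were uneven between the libraries of a group. *rps15* had 88.3, 3.0 and 94.8 CPM in siblings and 3.99, 54.8 and 4.54 CPM in mutants (adjusted p = 0.36). *rpl10* had 3.82, 29.6 and 3.21 CPM in siblings and 2.55, 2.31 and 2.63 CPM in mutants (adjusted p = 0.067), and *rps12* likewise stood at 27.9 CPM in sibling 2 and between 4.17 and 9.16 CPM elsewhere. *rpl13a* ran from 15.7 CPM in mutant 2 to 66.6 CPM in mutant 3. *rpl32* had no count in any library, and the other *rpl26* identifier had 1, 0 and 0 counts in siblings and 5, 5 and 0 in mutants, so neither was tested. *rps19bp1*, named for a partner of Rps19, had 16.6, 11.4 and 13.4 CPM in siblings and 16.5, 16.5 and 14.9 CPM in mutants (adjusted p = 0.34). These 18 genes had a median sibling FPKM of 10.4, against 480 for the well-counted members, and 9 of them overlap another coding gene. The reference gene table pairs 2 of the member identifiers with other genes, the *rpl37* identifier of low counts with *coa1* and the tested *rpl26* identifier with *atp6v0e1*.

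Part of the counts of such genes stood in rows outside the rule. The table has unnamed rows on alternate contigs that are annotated only with a protein domain. A row with the L16p/L10e domain of Rpl10 had 12476, 12574 and 14123 counts in siblings and 7592, 7753 and 7465 in mutants (log2 fold change -0.69, SE 0.07, adjusted p = 0.00022). A row with the L32 domain had 7218, 6173 and 5080 counts in siblings and 3056, 3746 and 4675 in mutants (log2 fold change -0.59, SE 0.17, adjusted p = 0.033). The L21e domain row had 563, 548 and 587 counts in siblings and 381, 360 and 337 in mutants (log2 fold change -0.57, adjusted p = 0.0019). A total of 14 rows outside the rule were added to the members, a choice made after the data were seen. The unnamed ones were picked by words in their annotation, and whether each encodes a cytosolic ribosomal protein was not checked. Besides unnamed rows on alternate contigs, they included the named row *RPL41* and an L6 domain row on a contig not labelled alternate. With them, the share of counts was 5.25% in siblings and 3.48% in mutants, a ratio of 0.663.

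Other parts of the translation apparatus were counted in the same test. *rack1*, a scaffold on the small subunit, and *faua*, which encodes a ubiquitin-like protein fused to a small subunit protein, were both lower, with log2 fold changes of -0.65 and -0.70. Of 24 tested genes of translation elongation and other known 5′ TOP mRNAs, 14 were lower and 0 were higher, with a median of -0.34. The elongation factors *eef1g* and *eef2b* had the smallest adjusted p of these, with log2 fold changes of -0.67 and -0.81. Of the 67 mitochondrial ribosomal protein genes tested, whose products translate the mitochondrial genome, 1 was lower and 11 were higher, with a median of 0.08. These are 1.49% and 16.4%, beside 14.3% and 13.6% of all genes tested. *mrps31* and *mrps33* had the smallest adjusted p among them, with log2 fold changes of 2.44 and 1.27. An unnamed row on an alternate contig of chromosome 5 with the domain of the *mrps31* product went the other way, from 15.0, 12.2 and 15.8 CPM in siblings to 0.69, 2.74 and 2.75 CPM in mutants, while *mrps31* stood at 9.93, 9.72 and 8.06 CPM in siblings and at 55.1, 48.3 and 47.4 CPM in mutants. In a list of 43 tested genes of ribosome assembly, 8 were lower and 4 were higher, with a median of -0.11. The lower share of 18.6% was near the 14.3% of all genes tested, and the higher share was 9.30%, beside 13.6%. Those lower included *ubtf*, with a log2 fold change of -0.40, and *bysl*, with -0.46. *nmd3*, the export adaptor of the large subunit, rose by 0.56, and *taf1b*, of the RNA polymerase I machinery, by 0.79. The nucleolar proteins *fbl* and *ncl* were not called, with log2 fold changes of 0.12 and 0.22.

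Lists that belong to ribosome stress, growth and p53 were given in the same way. Of 6 tested genes that sense or clear stalled ribosomes, 2 were lower, *ascc3* with a log2 fold change of -0.45 and *gcn1* with -0.20. They make up 33.3% of this short list, beside 14.3% of all genes tested. Of 16 tested genes of DNA replication and division, 13 were lower and 1 was higher, with a median of -0.49, led by *rrm2* (ENSDARG00000020711) with -1.45 and *top2a* with -0.95. Of 11 tested p53 targets, 7 were higher and 0 were lower, with a median of 1.14, among them *casp8* with 2.61 and *mdm2* with 2.52. The paper had already reported *ccng1*, *p21* (*cdkn1a*), *gadd45*, *baxa*, *casp8* and *mdm2* as upregulated in these libraries, so their calls add no separate support. Outside those genes, *bbc3* was called higher (log2 fold change 1.595), while *sesn1*, *sesn2* and *pmaip1* were not called.

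In vertebrates many ribosomal protein genes carry small nucleolar RNAs (snoRNAs), the guides of ribosomal RNA modification, within their introns. The table held 54 snoRNA rows within the span of 23 members, a set examined after the data were seen, of which 20 had no count. Summed, these rows had 101, 81 and 126 counts in siblings and 375, 374 and 369 in mutants, which is 5.78 ± 1.26 and 22.3 ± 0.84 CPM (SD, n = 3). Every mutant library was above every sibling library, and the mean was 3.87 times higher (exact two-sided permutation test, p = 0.1). The host genes together went the other way, from 19630 to 12520 mean CPM. By row, 33 had more counts in mutants and 1 had fewer. The rows within *rps7* summed to 142 counts over the siblings and 343 over the mutants, those within *rpl13* to 51 and 188, and those within *rpl4* to 33 and 168. Without *rps7* and *rpl13* the rows stood at 2.16 mean CPM in siblings and 11.8 in mutants. A difference in the same direction was seen in 87 snoRNA rows within other coding genes, with 56, 56 and 52 counts in siblings and 246, 221 and 223 in mutants, 4.47 times higher as CPM (exact two-sided permutation test, p = 0.1). These counts are low, and they do not tell reads of a snoRNA from reads of the intron around it.

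The splicing tables hold the events that the authors called with rMATS, and 6 of their 2075 events lay in 5 members. Among all genes tested, 6.22% had a deposited event, and 5 of 81 members is close to that share. Because the tables were selected for a difference, the values are given as a description. Inclusion is the share of the longer form, or of the upstream exon of a mutually exclusive pair, after junction reads are divided by the effective length of each form. The columns name neither the groups nor the libraries. The first set of values was taken as the mutants because the tables are named for mutants versus controls, in that order, so the direction of all 6 events rests on this reading. The 3 values of a group are given in the order of the tables.

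*rps2* and *rps9* had events of intron retention. In *rps2*, the intron on chromosome 3 from 18398904 to 18399316, next to the annotated start of the gene, was retained in 100%, 60.6% and 100% in mutants and in 0.80%, 9.64% and 0.90% in siblings. The reads behind these were few, 197, 163 and 110 in mutants and 812, 460 and 785 in siblings. In 2 of the mutant values no read spliced the intron out. Reads of the retained form were 197, 139 and 110 in mutants and 24, 132 and 26 in siblings, which overlap. Spliced reads were 0, 24 and 0 in mutants and 788, 328 and 759 in siblings. The gene had 29492, 26129 and 24490 counts in the mutant libraries, so these percentages rest on a small part of its reads. In *rps9*, the intron on chromosome 16 from 31922095 to 31922789 was retained in 18.1%, 21.2% and 18.8% in mutants and in 1.61%, 0.02% and 1.34% in siblings. Reads here were fewer still but for 1 value, with 63, 63 and 74 reads in mutants and 59, 3853 and 70 in siblings. Of them, 35, 38 and 42 in mutants and only 5, 4 and 5 in siblings were of the retained form. The second sibling value rests on 3849 spliced reads, against 54 and 65 in the other siblings and 25 to 32 in mutants. The inclusion level that the authors give for this value is the one these reads yield, but the number of reads is out of keeping with the other 5 values, so the value is uncertain.

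*rpl22l1* had an alternative 3′ splice site, whose use adds 68 bases (chromosome 24, 26477525 to 26477592, minus strand). The longer form made up 11.9%, 7.64% and 9.33% in mutants and 2.08%, 2.74% and 3.40% in siblings. These rest on 399 to 524 reads in mutants and 1598 to 1804 in siblings. Inclusion reads of the longer form were 86, 46 and 52 in mutants and 54, 63 and 80 in siblings, which overlap, while reads of the shorter form were 438, 382 and 347 in mutants and 1750, 1535 and 1560 in siblings. In *rps24*, a 29-base exon (chromosome 13, 30233825 to 30233853) was included in 24.9%, 21.8% and 24.8% in mutants and in 17.0%, 17.8% and 16.4% in siblings, from at least 1227 reads in each library.

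The other events were pairs of exons called mutually exclusive. The *rps2* pair lies on chromosome 3, with exons from 18399633 to 18399722 and from 18400586 to 18400693, and its upstream exon made up 33.6%, 31.8% and 26.4% in mutants and 46.7%, 42.1% and 41.8% in siblings. This event had 8858 to 20459 reads in each library, far more than the *rps2* retention event. In *rps27a*, the upstream exon (chromosome 6, 6271985 to 6272230) made up 15.0%, 12.4% and 8.72% in mutants and 4.56%, 4.53% and 5.70% in siblings. In each of the 6 events the mutant and sibling values were apart, and exact permutation tests on them could not go below p = 0.1.

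**Figure D5:**
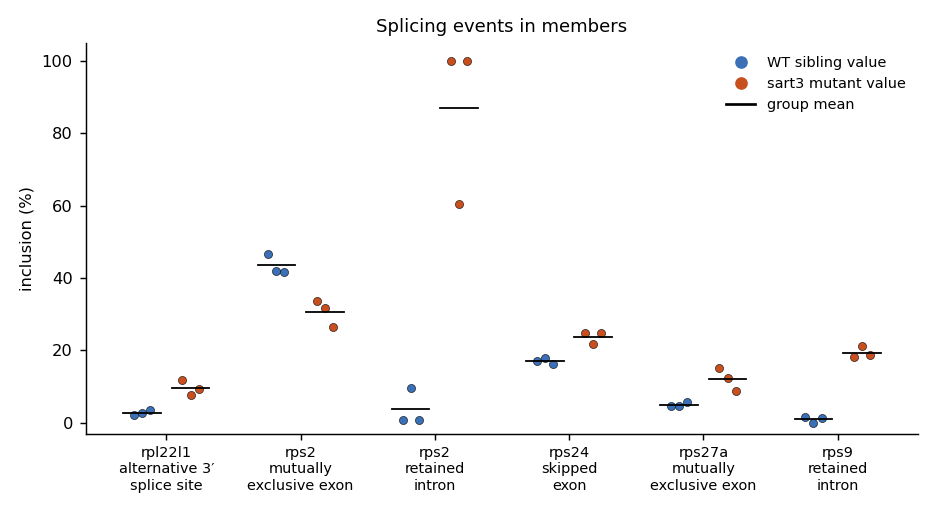
Inclusion (%, vertical axis) of the 6 deposited events in members, with 3 values for each group and black lines for group means, WT siblings in blue and *sart3* mutants in orange. The *rps2* retained intron has the widest difference, 86.9% against 3.78% on average, and in the *rps2* exon pair the mutant values are the lower ones.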

How the data were processed

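Whole larvae of *sart3* mutants and WT siblings were sequenced in 3 libraries each. The authors deposited counts per gene and, made from them with the gene length and a constant of each library, FPKM. The submitters' processing notes name HISAT2 2.0.5, featureCounts 1.5.0-p3 and GRCz11, and the library kit is NEBNext Ultra; the annotation and the counting of strand are not given in the sources used here, so overlapping genes can share reads. The rMATS tables also hold the authors' own p-values, FDR and inclusion differences, which were not used. Its version is not given in the sources used here. Packed read counts of the events were recovered from inclusion levels (tolerance 0.0006) in 4 cells.

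Counts were compared with edgeR 4.0.16 (R 4.3.3), with filterByExpr, TMM factors between 0.975 and 1.01, the quasi-likelihood test and Benjamini-Hochberg adjustment over 24809 genes. CPM were computed from the counts with these factors. Alternatives used DESeq2 1.42.0 and limma 3.58.1, other scaling factors, count filters, gene length offsets, a replicate block and left-out libraries. Python 3.11.15, pandas 2.3.3 and scipy 1.17.1 did the rest. Scripts were tested on simulated data. Libraries of a group differed by more than sampling noise (chi-square per degree of freedom 4.39 to 13.4), and total counts of 16008788 to 18310233 set the precision.

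Named members are the 8 of smallest adjusted p in each direction, the 5 of highest sibling FPKM, stalk, 5S RNP and paired genes, *rpsa*, *rpl7l1*, *rps19bp1*, and those with an event or too few counts. Other members were named after their values were seen, as were *fbl*, *ncl*, *ubtf* and *bysl* outside them. From other lists, the 2 genes of smallest adjusted p are named. Members and lists were chosen with earlier results of these data known. All 83 identifiers were found in the reference gene table (RefSeq). Some genes are not reported here.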

Additional observations from a re-analysis of the deposited data

Results flagged for a closer look

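In several rows outside the members, annotated with or named for a ribosomal protein, at least 1 mutant library was higher than every sibling library. Of these, 3 are described first, and none of the 3 passed the test. Further ones included an S16 domain row, with 3.20, 2.32 and 3.66 CPM in siblings and 2.89, 7.41 and 1.97 CPM in mutants. An L11 domain row had 4.38, 4.07 and 5.13 CPM in siblings and 0.93, 11.65 and 0.78 CPM in mutants. Neither of these was called, and the list is not complete. A domain name does not by itself assign a row, here or below, to the member of the same number. Of the 3, the row *RPL41*, written in capitals and so outside the rule, had 68.4, 72.3 and 68.6 CPM in siblings and 44.0, 39.7 and 218.6 CPM in mutants, and it was not called (log2 fold change 0.53, adjusted p = 0.53). Mutant 3 alone lay above the siblings, and the other mutants lay below them. An unnamed row on an alternate contig with an RNA recognition motif and an S19 domain ranged from 8.65 to 10.4 CPM in siblings and from 11.3 to 13.7 CPM in mutants (log2 fold change 0.41, adjusted p = 0.056). Another, with a COMM domain and an L13 domain, ranged from 5.65 to 7.10 CPM in siblings and from 7.91 to 15.0 CPM in mutants (log2 fold change 0.74, adjusted p = 0.054).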

How the results depend on the processing

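The number of members called lower was 64 to 66 with every other test, scaling to the whole library, count filter, length offset and block, and whichever library was left out, and the 64 were kept in each. The member called higher, *rpl9*, was not called (0 members higher) with DESeq2, without a count filter, at an adjusted p under 0.01, with the replicate block or with any library left out, nor is it among the members of at least 50 CPM. Offsets for gene length brought the median member log2 fold change to -0.55. Member counts set against the scaled counts of the other genes, in place of all counts, brought the difference from -1.73 to -1.89 percentage points. This change includes that of the denominator. Relative to the member pool, 13 members were lower and 9 higher, with a median of -0.020. Over the 6 sets that lack a library, the median ran from -0.66 to -0.58, the difference in share from -1.78 to -1.63 percentage points and the number higher was 0 to 0. Of 544 values of 34 named members under the alternatives, 530 kept their direction and their side of the threshold, 9 (all *rpl9*) lost the call, 1 (a low-count *rpl37* identifier without sibling replicate 2, adjusted p = 0.034) gained it and 4 changed sign. These 4, never called, ran with a library left out from -0.018 (without mutant replicate 1) to 0.11 for *rpl22*, from -0.030 (without sibling replicate 2) to 0.30 for *rpl26*, from -0.28 to 0.013 (without sibling replicate 1) for *rps27a* and from -0.15 to 0.0044 (without mutant replicate 2) for *rps8b*, with adjusted p between 0.90 and 0.99 where the sign changed. Correlations of the deviations from the group mean were 0.064, 0.028 and -0.107 for libraries of equal replicate number. For unequal numbers they lay between -0.107 and 0.084. With 3 libraries in each group, these values cannot tell whether equal numbers share a clutch or day. With the replicate block 66 members were lower, 0 higher, with a median of -0.63. All 6 splicing events have at least 10 reads in every library. Without division by effective lengths, the inclusion difference was 52.3 percentage points for *rps9* retention and 9.46 for the *rpl22l1* splice site, against 18.4 and 6.88. Depth limits the members of few counts, such as *rpl9*.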
